A study of Mus musculus with 8 samples.

Results

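R-spondin receptor and Wnt pathway genes were followed through mouse pancreatic ductal adenocarcinoma cells that had lost C1galt1c1. The 10 genes are Lgr4, Lgr5, Rnf43, Znrf3, Axin2, Ctnnb1, Lrp5, Lrp6, Tcf7l2 and Ccnd1, of 49315 gene identifiers in the deposited table. They were chosen by the measured KO minus WT difference of Lgr4, which was lower in the C1galt1c1-KO library of each of the 4 lines. That difference is therefore a description without a test, and the other 9 genes are pathway partners and readouts listed beside it. The C1galt1c1-KO (KO) libraries are derivatives of the lines 6694c2, 2838c3, 6499c4 and 6419c5, and they are set against the isogenic wild-type (WT) cells of each line. Each line gave 1 KO and 1 WT library of polyadenylated RNA, 8 in all, from cells grown in high-glucose DMEM with fetal bovine serum. C1galt1c1, also called Cosmc, is the chaperone of the core 1 O-glycan synthase, and its loss leaves O-glycans truncated at the Tn antigen. The labels do not say whether a KO culture is 1 clone or a pool. Within a line each genotype was measured once, so the tests below rest on the spread between the 4 lines.

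Values are TPM, length-scaled transcript shares that sum to 1000000 in each library. C1galt1c1 itself had 10.9, 15.3, 19.0 and 16.1 TPM in the KO libraries of 6694c2, 2838c3, 6499c4 and 6419c5, against 37.0, 40.4, 54.2 and 37.9 TPM in WT. Each KO library lay below all WT libraries, at 36.2% ± 5.38 of WT (SD, n = 4 lines). The labelled ductal cell type was checked against its markers. The 8 ductal epithelial markers, keratins 8, 18 and 19 among them, were above 1 TPM in all 8 libraries. Their levels varied, with Epcam at 1.21 to 27.1 TPM in KO and 1.35 to 44.9 TPM in WT libraries. Krt7 had 21.7 to 1397 TPM in KO and 35.4 to 1256 TPM in WT libraries. Of the 6 acinar markers 5 were listed at 0 throughout, of the 5 islet markers the hormone genes Ins1, Ins2 and Gcg were, and the pan-leukocyte gene Ptprc reached 0.151 TPM. The islet marker Sst reached 7.39 TPM and the macrophage marker Cd68, which other cells also express, 28.1 TPM. Sst, Cd68 and the fibroblast marker Col1a1 were also above 1 TPM in all 8 libraries, so passing that level does not by itself set the cell type. The 6 fibroblast markers summed to 2.27 to 7.21 TPM in KO and 2.07 to 5.56 TPM in WT libraries, and the 4 endothelial markers to 0.197 to 1.14 TPM in KO and 0.226 to 1.16 TPM in WT libraries. Identifiers without a name and small RNAs together took 13.8% and 10.9% of the TPM in the KO libraries of 6694c2 and 6419c5, against 1.19% to 1.76% in the other 6 libraries. Most of this was identifiers without a name, at 12.5% and 9.69% in these KO libraries. TPM are shares, and the median KO minus WT difference of all 12900 genes tested was -0.15 on the log2(TPM + 1) scale. Differences below are given relative to this median, or to the median of the line (-0.23 in 6694c2, -0.08 in 2838c3, -0.11 in 6499c4 and -0.15 in 6419c5). The limma p-values printed beside relative changes are of the changes before the median was taken off. A relative interval can therefore span 0 where the unadjusted limma p is below 0.05. In bulk RNA, fewer cells that express a gene and less RNA per cell cannot be told apart.

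In canonical Wnt signalling a Wnt protein brings a Frizzled receptor and the co-receptor LRP5 or LRP6 together, which halts the breakdown of beta-catenin, the product of Ctnnb1. Beta-catenin then joins TCF and LEF factors such as TCF7L2 on DNA and switches on genes that include the feedback inhibitors AXIN2, RNF43 and ZNRF3. RNF43 and ZNRF3 are ubiquitin ligases that remove Frizzled from the cell surface, and R-spondins, secreted proteins bound by LGR4, LGR5 or LGR6, clear these ligases and so raise the response to Wnt. In the pancreas, loss of RNF43 is a known route to Wnt dependence in ductal tumours.

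The promoter sequences that carry the TCF letters are shown first, because the readouts below are genes known to respond to beta-catenin. The 250 bases upstream of the annotated start of 21770 protein-coding genes were searched on both strands, in GRCm39 with GENCODE vM39 starts, for CTTTGAA and CTTTGAT, 2 forms of the TCF/LEF core that do not overlap each other. Either motif was present in 7.54% of all promoters, in 2 of the 10 genes and in 7 of 94 further Wnt pathway genes (7.45%), which is close to the share among all promoters. The 2 genes were Axin2 and Lrp6, and the 7 included the classical feedback genes Notum, Sp5 and Nkd1. The 30 bases around each match read as follows, with the motif in capitals and each sequence on the strand of its gene:
Axin2: tcggctcgcgcCTTTGAAgtgcacagttaa
Notum: gtccgccgccgCTTTGATcccgggggcccc
Sp5: ggcaaggccccCTTTGATcaggaaaatcca
Nkd1: gtccgcctcgcCTTTGATgggccgctgccg
Lrp6: ccgcaatggcaCTTTGATtttcctacgtcc
The motif began 22 bases upstream of the start in Axin2 (searched region chr11:108811388-108811637, plus strand), 53 in Notum (chr11:120552020-120552269, minus strand), 104 in Sp5 (chr2:70305017-70305266, plus strand), 26 in Nkd1 (chr8:89247675-89247924, plus strand) and 106 in Lrp6 (chr6:134544213-134544462, minus strand). The start used is that of the canonical transcript of each gene. The Axin2 and Nkd1 regions overlap annotated exons of coding genes. That of Axin2 lies within the annotated gene, which begins at 108811169, so it is upstream of the canonical transcript only. The Nkd1 region runs into the annotated gene, which begins at 89247890, and the Nkd1 motif lies within that gene. A match describes letters and is no evidence of binding. The upstream regions of Lgr4 and Tcf7l2, which were lower in the KO library of each line, held neither motif. They are shown whole, in lower case throughout because nothing matched, from chr2:109747589-109747838 (plus strand) and chr19:55729938-55730187 (plus strand):
Lgr4: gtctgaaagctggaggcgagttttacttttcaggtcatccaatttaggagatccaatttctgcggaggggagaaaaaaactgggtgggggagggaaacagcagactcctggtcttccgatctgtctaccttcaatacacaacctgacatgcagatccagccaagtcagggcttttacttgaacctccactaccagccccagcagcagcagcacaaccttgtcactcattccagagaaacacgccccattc
Tcf7l2: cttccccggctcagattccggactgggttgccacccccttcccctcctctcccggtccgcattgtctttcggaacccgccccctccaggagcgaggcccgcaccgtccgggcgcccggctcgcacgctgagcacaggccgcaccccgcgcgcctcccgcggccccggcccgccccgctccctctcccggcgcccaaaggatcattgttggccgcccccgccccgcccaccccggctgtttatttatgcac
GC content was 50.4% in the Lgr4 stretch and 73.6% in the Tcf7l2 stretch.

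The receptor Lgr4 (ENSMUSG00000050199, chromosome 2, 109747839 to 109844609, plus strand) was the highest of the 3 LGR receptor transcripts, by TPM, in 7 of the 8 libraries. It had 6.78 TPM in the KO and 17.6 TPM in the WT library of 6694c2, and 15.8 TPM in KO and 31.3 TPM in WT of 2838c3. It had 11.8 TPM in KO and 27.8 TPM in WT of 6499c4, and 32.4 TPM in KO and 67.0 TPM in WT of 6419c5. Every KO library thus lay below the WT library of its line, while the KO range of 6.78 to 32.4 TPM and the WT range of 17.6 to 67.0 TPM overlapped. Within a line the KO library held 38.6%, 50.5%, 42.2% and 48.4% of the WT level in 6694c2, 2838c3, 6499c4 and 6419c5, or 44.9% ± 5.49 (SD, n = 4 lines). The relative log2 differences were -1.03, -0.86, -1.07 and -0.87 in the same order, with a mean of -0.95. These values chose the genes, so nothing is read from the shares of all genes that were lower in KO in all 4 lines by TPM as deposited (18.5%) or lay below the median in all 4 (6.79%).

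The level of Lgr4 also differed between the lines, which the choice of genes did not use. In descending order of the line mean the lines were 6419c5 at 49.7 TPM, 2838c3 at 23.6 TPM, 6499c4 at 19.8 TPM and 6694c2 at 12.2 TPM. Only the step between 6419c5 and 2838c3 was free of overlap between the libraries of neighbouring lines. In the limma F-test on the line terms, fitted over all genes, Lgr4 differed between lines with an adjusted p of 0.00421 (Benjamini-Hochberg), a call made for 16.9% of all genes. Without line 6419c5 the adjusted F-test p of Lgr4 was 0.126 and the unadjusted one 0.0174, in a fit that called 5.83% of all genes. Without both 6694c2 and 6419c5 the adjusted p was 0.552, and 8.19% of all genes were called.

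**Figure D1:**
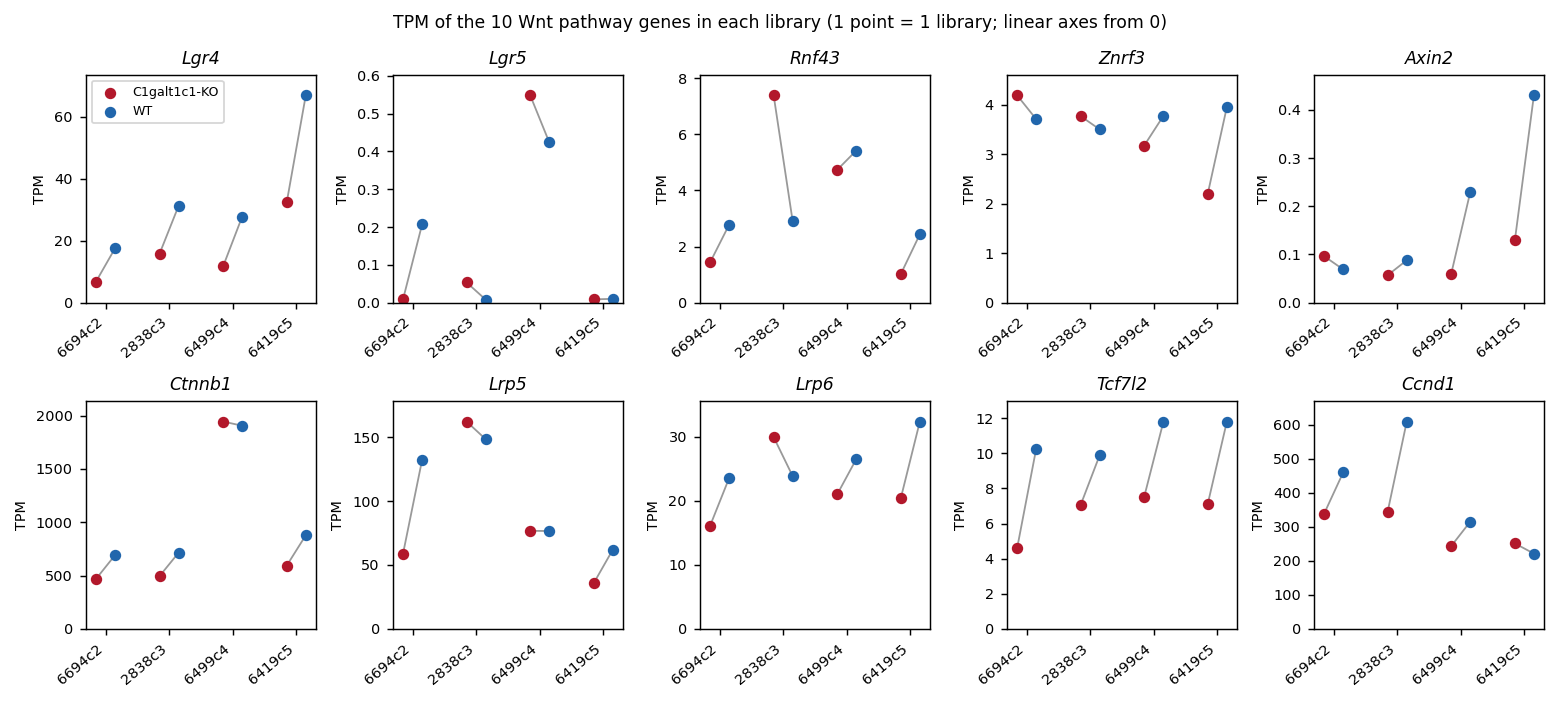
TPM of each of the 10 genes (vertical axes, linear, from 0, scaled per gene) in the 4 lines (horizontal axis), with the KO library left of the WT library of its line and joined to it. Lgr4 and Tcf7l2 had the KO point below the WT point in each line, whereas Lgr5 and Axin2 were at most 0.549 TPM everywhere.

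Lgr5, the paralogue that marks intestinal stem cells and is itself a Wnt target in the gut, was hardly present. It had 0.0086, 0.0534, 0.549 and 0.0086 TPM in the KO libraries of 6694c2, 2838c3, 6499c4 and 6419c5, against 0.207, 0.0079, 0.424 and 0.01 TPM in WT. The highest pair belonged to 6499c4, and the direction of KO against WT differed between lines. An overlapping gene on the other strand reached 0.161 TPM, so the smallest Lgr5 values are uncertain. Lgr6, the third receptor of the family, was singled out after its values were seen. It had 0.736, 12.1, 13.2 and 4.28 TPM in KO of 6694c2, 2838c3, 6499c4 and 6419c5, against 2.56, 1.69, 5.69 and 5.87 TPM in WT. It was higher in KO in 2838c3 and 6499c4 and lower in KO in the other two lines, and in the KO library of 6499c4 it stood above Lgr4 (13.2 against 11.8 TPM). Its relative log2 change was 0.64 with an SE of 0.52 (limma adjusted p = 0.75), with a 95% interval of -0.60 to 1.87. The R-spondins themselves, the ligands of these receptors, were near absent. Rspo3 reached 0.344 TPM in the WT library of 6694c2, Rspo2 reached 0.133 TPM in the KO library of 6694c2, and Rspo4 was listed at 0 in all 8 libraries. The sum of the 4 R-spondins was 0.123 to 0.327 TPM in KO and 0.0971 to 0.367 TPM in WT libraries.

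The ubiquitin ligases Rnf43 and Znrf3, whose clearance is what R-spondin and LGR bring about, were low in all libraries and did not share the direction of Lgr4 across lines. Rnf43 had 1.43, 7.39, 4.73 and 1.01 TPM in the KO libraries of 6694c2, 2838c3, 6499c4 and 6419c5, against 2.78, 2.89, 5.42 and 2.44 TPM in WT. The 2838c3 KO library was the highest of the 8, with a relative log2 difference of 1.19, while 6694c2, 6499c4 and 6419c5 stood at -0.41, -0.06 and -0.61. The fitted relative change of Rnf43 was 0.03 with an SE of 0.33 (limma adjusted p = 0.913) and a 95% range from -0.75 to 0.81. Without 2838c3 it was -0.35, and its F-test between lines then passed (limma adjusted p = 0.0312). In that fit 29.1% of all genes passed the F-test, against 16.9% with all lines. Znrf3 had 4.19, 3.77, 3.18 and 2.20 TPM in KO in that line order, against 3.71, 3.50, 3.77 and 3.96 TPM in WT. It was higher in KO in 6694c2 and 2838c3 and lower in 6499c4 and 6419c5, and its fitted relative change was -0.00 with an SE of 0.20 (limma adjusted p = 0.796) and a 95% range from -0.47 to 0.47. Neither ligase differed between lines at an adjusted F-test p of 0.05, with 0.174 for Rnf43 and 0.789 for Znrf3, and the libraries of 6499c4 and 6694c2 were the only neighbours in either order that did not overlap, for Rnf43.

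The co-receptors Lrp5 and Lrp6 stood at higher levels. Lrp5 had 58.8, 162, 76.7 and 35.8 TPM in the KO libraries of 6694c2, 2838c3, 6499c4 and 6419c5, against 132, 148, 76.5 and 62.0 TPM in WT. The KO library held 44.5% and 57.8% of the WT level in 6694c2 and 6419c5, and 109% and 100.2% in 2838c3 and 6499c4. The 6694c2 and 6419c5 KO libraries are also those with 13.8% and 10.9% of TPM in unnamed identifiers and small RNAs, and the part of these in the difference was not tested. The fitted relative change of Lrp5 was -0.30 with an SE of 0.24 (limma adjusted p = 0.579). With unnamed identifiers and small RNAs left out of all libraries it was -0.29. Without 6694c2 and 6419c5 it was 0.17 and the direction was turned. Lrp6 had 16.1, 30.0, 21.0 and 20.4 TPM in KO, against 23.6, 23.9, 26.5 and 32.4 TPM in WT, a fitted relative change of -0.14 with an SE of 0.19 (limma adjusted p = 0.613). It was higher in KO in 2838c3 alone, and without 6694c2 and 6419c5 its relative change was 0.10. Lrp5 was highest in 2838c3, at a line mean of 155 TPM, and lowest in 6419c5, at 48.9 TPM. Its F-test between lines missed the threshold, at an adjusted p of 0.0568, and over the alternatives it lay between 0.0265 (without 6694c2) and 0.227 (without 6419c5). It passed under 5 of them, with median-ratio scaling (0.0419), with quantile normalization (0.0455), with unnamed identifiers and small RNAs left out (0.0375), without 6694c2, and without both 6694c2 and 6419c5 (0.0488).

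Ctnnb1 was the most abundant of the 10 genes. It had 469, 495, 1944 and 593 TPM in the KO libraries of 6694c2, 2838c3, 6499c4 and 6419c5, against 692, 715, 1905 and 878 TPM in WT. Line 6499c4 stood apart with both of its libraries above every other library, and here KO stood at 102% of WT. In the other lines the KO library held 67.7%, 69.3% and 67.6% of the WT level in 6694c2, 2838c3 and 6419c5. The fitted relative change was -0.26 with an SE of 0.17 (limma adjusted p = 0.561), with a 95% interval of -0.65 to 0.14. Between lines Ctnnb1 differed with an adjusted F-test p of 0.00881. This call rested on 6499c4, without which the adjusted F-test p was 0.488 and the unadjusted one 0.313. In that fit 5.87% of all genes were called. Below 6499c4, with a line mean of 1924 TPM, came 6419c5 at 736 TPM, 2838c3 at 605 TPM and 6694c2 at 580 TPM, and these neighbours overlapped.

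Tcf7l2, a DNA-binding partner of beta-catenin, was the other gene that was lower in the KO library of each line. It had 4.59, 7.06, 7.53 and 7.13 TPM in KO libraries of 6694c2, 2838c3, 6499c4 and 6419c5, against 10.2, 9.90, 11.8 and 11.8 TPM in WT. The KO libraries, at 6.58 ± 1.34 TPM, all lay below the WT libraries, at 10.9 ± 1.00 TPM (SD, n = 4 libraries each), and the groups did not overlap, a pattern found for 1.34% of all genes in this direction. As a share of WT the KO level was 60.1% ± 11.2 (SD, n = 4 lines). The relative log2 differences were -0.78, -0.35, -0.48 and -0.50, and the fitted relative change was -0.52 (SE 0.17), with a 95% range from -0.92 to -0.13. The unadjusted limma p was 0.00523 and the adjusted p over all 12900 genes 0.556, so the difference did not pass. Over the alternatives the unadjusted limma p lay between 0.00377 and 0.118. Its F-test between lines gave an adjusted p of 0.492, and neighbouring lines overlapped throughout. Of the related factors, Tcf7 had 5.89 to 14.3 TPM in KO and 5.66 to 12.3 TPM in WT libraries, with a relative change of 0.19 (SE 0.17, limma adjusted p = 0.941), and Lef1 was at most 0.0201 TPM in any library. Tcf7l1 had 0.271, 2.29, 4.33 and 0.634 TPM in KO of 6694c2, 2838c3, 6499c4 and 6419c5, against 1.39, 0.844, 1.55 and 0.761 TPM in WT. It was thus higher in KO in 2838c3 and 6499c4 and lower in the other lines. Its relative change was 0.37 (SE 0.35, limma adjusted p = 0.833). Tcf7, Tcf7l1 and Lef1 were named after their values were seen.

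Ccnd1, cyclin D1, a cell-cycle gene that beta-catenin and growth factor signals can raise, did not share one direction. It had 338, 345, 243 and 251 TPM in the KO libraries of 6694c2, 2838c3, 6499c4 and 6419c5, against 460, 609, 315 and 221 TPM in WT. The largest difference, -0.74 relative to the median, was in 2838c3, and in 6419c5 the KO library was the higher one, at 0.34. The fitted relative change was -0.21 with an SE of 0.19 (limma adjusted p = 0.576), and without line 2838c3 it was -0.04. Its F-test between lines gave an adjusted p of 0.101, and of the neighbours only 6694c2 and 6499c4 did not overlap. None of the 12 proliferation markers was called (0 of 12 by limma, with 1 lower in KO at an unadjusted limma p below 0.05, Ccne2, against 7.95% of all genes), and their median relative difference was -2.57 in 2838c3 and 0.56 in 6419c5, with -0.40 in 6694c2 and -0.26 in 6499c4. Their summed level was 294 to 631 TPM in KO and 308 to 1555 TPM in WT libraries, with Pcna, the replication clamp, at 139 TPM in KO and 429 TPM in WT of 2838c3, and Rrm2, a ribonucleotide reductase subunit, at 25.5 and 166 TPM in the same KO and WT libraries. The part of these markers in the Ccnd1 difference was not tested.

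**Figure D2:**
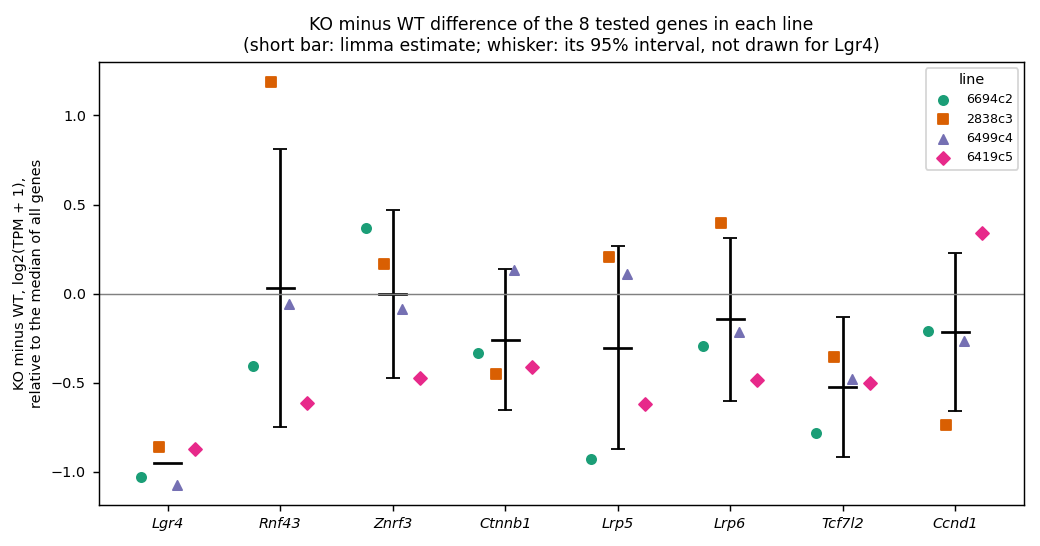
KO minus WT difference on the log2(TPM + 1) scale, relative to the median of all genes (vertical axis), for the 8 genes that passed the filter (horizontal axis), with 1 symbol per line. No Lgr4 interval is drawn. The short bar is the limma estimate and the whisker its 95% interval. The 4 symbols of Lgr4 lie between -1.07 and -0.86 and those of Tcf7l2 between -0.78 and -0.35, while the symbols of Rnf43, Znrf3, Ctnnb1, Lrp5, Lrp6 and Ccnd1 lie on both sides of 0.

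Axin2, the readout used most widely for beta-catenin activity, was near the bottom of the scale in both genotypes. It had 0.0964, 0.0569, 0.0602 and 0.129 TPM in the KO libraries of 6694c2, 2838c3, 6499c4 and 6419c5, against 0.0689, 0.088, 0.23 and 0.43 TPM in WT. The highest values were those of the WT libraries of 6419c5 and 6499c4, the KO library was lower in 2838c3, 6499c4 and 6419c5, and the ranges overlapped. Axin2 and Lgr5 did not pass the filter of 1 TPM in at least 4 libraries and were not tested. As a share of WT the KO level of Axin2 was 140%, 64.7%, 26.2% and 30.0% in 6694c2, 2838c3, 6499c4 and 6419c5. Fitted without a filter, Axin2 had a relative change of -0.09 (SE 0.07, limma adjusted p = 0.769) and Lgr5 one of 0.03 (SE 0.07, limma adjusted p = 0.944). On the log2(TPM + 1) scale values so near 0 can hardly move, so these small changes do not show that either gene was unchanged. At such levels the number of reads behind a value is small and not known from TPM.

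Of the 10 genes 8 passed the filter. None of the 7 tested beside Lgr4 was called at an adjusted limma p of 0.05, and the share of all genes called was 0.00%. At an unadjusted limma p below 0.05 there were 2, Ctnnb1 and Tcf7l2, both lower in KO, against 7.95% of all genes lower and 0.860% higher. With median-ratio scaling the unadjusted limma p of Ctnnb1 was 0.170, so it was no longer among them. The split of all genes at that threshold depended on scaling, with 90.2% lower as deposited and 54% lower after median-ratio scaling. Lgr4 is left out of the following counts because it chose the genes. Below the median in all 4 lines lay 1 of the 7, Tcf7l2, against 6.79% of all genes, and above it in all 4 lines 0, against 6.43%. By TPM as deposited Tcf7l2 was again the only one of the 7 that was lower in KO in all 4 lines, against 18.5% of all genes, and 0 were higher, against 1.88%. Groups without overlap were found for 1 of the 7 with KO lower, Tcf7l2 (1.34% of all genes), and 0 with KO higher (0.147%). The median relative change of the 7 was -0.21, against 0 over all genes.

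Within a line, differences of at least 2-fold were counted on the log2(TPM + 1) scale with the median of the line taken off. Lgr4 was beyond 2-fold lower on this scale in 6694c2 and 6499c4, which is a description. Of the other 7 none was 2-fold lower in 6694c2 (3.17% of all genes) or 2-fold higher there (2.79%). In 2838c3 none was 2-fold lower (6.47%) and Rnf43 was 2-fold higher (5.89%). In 6499c4 none was 2-fold lower (1.26%) or higher (1.12%), and in 6419c5 none was lower (1.44%) or higher (2.09%). As plain TPM, Lrp5 at 44.5% and Tcf7l2 at 44.7% of WT in 6694c2, and Rnf43 at 41.7% of WT in 6419c5, were also past 2-fold lower.

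**Figure D3:**
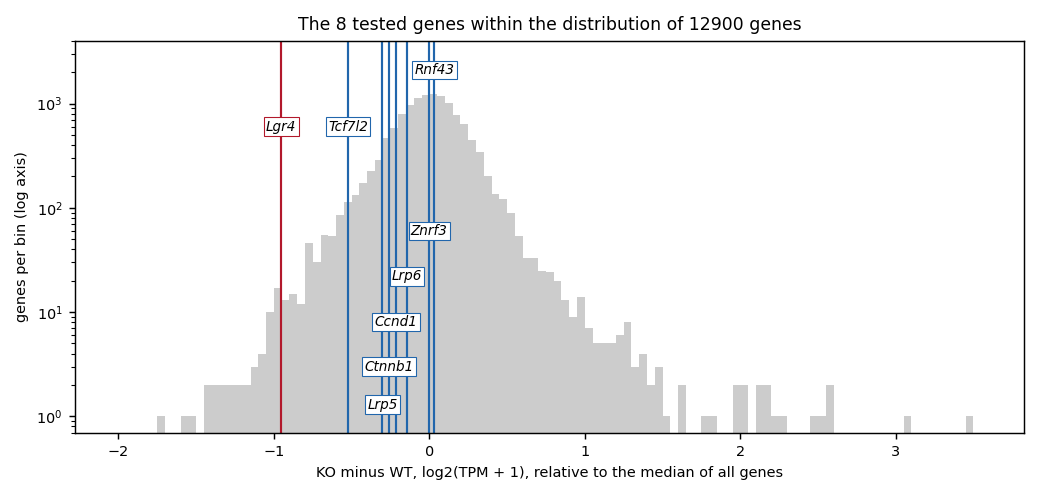
Distribution of the KO minus WT change over 12900 genes, relative to their median (horizontal axis, log2(TPM + 1) scale; vertical axis, genes per bin, log scale), with the 8 tested genes as lines. Lgr4 at -0.95 and Tcf7l2 at -0.52 lie on the lower flank, and Lrp5, Ctnnb1, Ccnd1, Lrp6, Znrf3 and Rnf43 lie between -0.30 and 0.03.

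The rest of the pathway was described with 94 further genes in 8 lists, 49 of which passed the filter. None was called at an adjusted limma p of 0.05 in either direction (0 of 49). At an unadjusted limma p below 0.05 there was 1 higher, Wnt7a, and 1 lower, Ctnnbip1, an inhibitor that blocks the binding of beta-catenin to TCF, against 0.860% of all genes higher and 7.95% lower. The median relative change of the 49 was 0.01, against 0 for all genes. By line the median was -0.09 in 6694c2, 0.35 in 2838c3, 0.14 in 6499c4 and -0.22 in 6419c5. In all 4 lines 0 of the 49 lay below the median (6.79% of all genes) and 6 above it (6.43% of all genes), namely Dkk2, Tle1, Dvl1, Wnt7a, Gsk3a and Csnk1e. By TPM as deposited only Wnt7a of these 6 was higher in KO in each line (1.88% of all genes). Dkk2 and Csnk1e were lower in KO in 2 lines, Tle1 and Gsk3a in 3 and Dvl1 in 1. In 6694c2 Dkk2 lay above the median by 0.003, with 0.311 TPM in KO and 0.532 TPM in WT. Fzd7, Ror2 and Ctnnbip1 were lower in KO in all 4 lines by TPM as deposited (18.5% of all genes). Between lines 9 of the 49 differed at an adjusted F-test p of 0.05, against 16.9% of all genes, and they were Wls, Ctnnbip1, Fzd1, Wnt7a, Ror2, Ptk7, Csnk1a1, Apcdd1 and Tle4.

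Among the 19 Wnt ligands 4 passed the filter, none was called, and their median relative change was 0.46. Wnt7a, which can signal through beta-catenin, had 57.5, 63.6, 14.7 and 13.0 TPM in the KO libraries of 6694c2, 2838c3, 6499c4 and 6419c5, against 47.2, 33.0, 13.1 and 4.16 TPM in WT. It was higher in the KO library of each line, a direction found for 1.88% of all genes, with a relative change of 0.85 and an SE of 0.24. It did not pass (limma adjusted p = 0.556, with an unadjusted value of 0.0222). Both p-values are of the change of 0.70 before the median was taken off. On the relative log2 scale it was at least 2-fold higher in 2838c3 and 6419c5, where 5.89% and 2.09% of all genes were. Across lines the order was 6694c2, 2838c3, 6499c4 and 6419c5 in both genotypes of Wnt7a but for the 2838c3 KO library, and the F-test gave an adjusted p of 0.00629. Wnt4 had 13.1, 2.86, 3.84 and 4.95 TPM in KO, against 7.98, 5.18, 4.02 and 11.9 TPM in WT, with a relative change of -0.15 (SE 0.30, limma adjusted p = 0.733). Wnt7b, named after its values were seen, had 3.29, 18.1, 5.53 and 3.802 TPM in the KO libraries of 6694c2, 2838c3, 6499c4 and 6419c5, against 3.66, 0.22, 2.76 and 11.9 TPM in WT. It was far higher in KO in 2838c3, with a relative difference of 4.05, and lower in KO in 6419c5, at -1.27. Its fitted relative change was 0.95 (SE 0.78, limma adjusted p = 0.724), above that of Wnt7a and with a wider error. Wnt3a and Wnt8b were listed at 0 in every library, and 11 of the 19 ligands never reached 1 TPM. For secretion, Porcn, the acyltransferase that lipidates Wnts, was between 25.6 and 155 TPM in KO and 31.9 and 175 TPM in WT libraries, and Wls, their carrier, between 16.6 and 77.8 TPM in KO and 24.9 and 72.5 TPM in WT libraries. Neither was called, with relative changes of 0.01 for Porcn and -0.16 for Wls, and Porcn was at 26.9% of WT in 6694c2 and at 266% in 2838c3.

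Of the 15 other receptors 11 passed the filter and none was called (median relative change -0.10). They included Ryk, a Wnt co-receptor, at 41.4 ± 4.34 TPM in KO and 48.6 ± 4.63 TPM in WT libraries (SD, n = 4 libraries each), with a relative change of -0.08 (SE 0.15, limma adjusted p = 0.614). Ptk7, a planar polarity receptor, separated the lines, with 0.48 TPM in KO and 0.412 TPM in WT of 6419c5 and at least 18.7 TPM in KO and 27.6 TPM in WT libraries of the other three. The 15 cytoplasmic transducers all passed the filter and none was called (0 of 15, median relative change 0.01). Csnk1d and Csnk1a1, casein kinases of the pathway, had relative changes of -0.00 and 0.09. Of 11 nuclear partners 9 passed the filter and none was called, with Pygo2 at 72.8 ± 14.3 TPM in KO and 84.1 ± 19.6 TPM in WT libraries and Bcl9l at 41.4 ± 14.1 TPM in KO and 47.8 ± 7.55 TPM in WT libraries (SD, n = 4 libraries each).

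The secreted and surface inhibitors were mostly silent, as 11 of 16 never reached 1 TPM and Dkk1 was listed at 0 in all 8 libraries. Dkk2, an LRP-binding antagonist, had 9.43 TPM in the KO and 0.0654 TPM in the WT library of 2838c3. In the other lines it had 0.311, 1.43 and 1.27 TPM in KO and 0.532, 0.556 and 1.34 TPM in WT of 6694c2, 6499c4 and 6419c5. Its relative change was 1.06 with an SE of 0.57 (limma adjusted p = 0.604), and the size came from 2838c3, at 3.37. Dkk3, Kremen1, a receptor for DKK proteins, and Apcdd1, a membrane inhibitor, had relative changes of 0.24, 0.07 and -0.17, with adjusted limma p of 0.881, 0.925 and 0.664.

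Of 12 other target genes 7 never reached 1 TPM, and among them were the feedback gene Nkd1, Sp5 at up to 0.0526 TPM, and Ascl2, which was listed at 0 throughout. Nkd1 had 0.0776, 0.0344, 0.0727 and 0.0974 TPM in the KO libraries of 6694c2, 2838c3, 6499c4 and 6419c5, against 0.0499, 0.0177, 0.0695 and 0.0452 TPM in WT. Nkd1 was thus higher in KO in each line, though hardly so in 6499c4. This direction was found for 1.88% of the genes past the filter, which Nkd1 did not pass. The share among genes as low as Nkd1 was not computed. Fitted without a filter, Nkd1 had a relative change of 0.08 (SE 0.03, limma adjusted p = 0.769). At such levels no contrast with Axin2, which was lower in KO in 3 of the lines, is read from it. Notum, a secreted Wnt deacylase counted with the inhibitors, reached 0.385 TPM in the WT library of 6419c5. Promoter stretches of Nkd1, Sp5, Notum and Axin2 are printed above, and genes below 1 TPM were named after their values were seen. The 4 target genes that passed the filter are ones that many other signals also drive. Myc had 248, 277, 293 and 186 TPM in the KO libraries of 6694c2, 2838c3, 6499c4 and 6419c5, against 257, 184, 333 and 186 TPM in WT, a relative change of 0.24 (SE 0.17, limma adjusted p = 0.865). Cd44 had 48.0 TPM in KO and 121 TPM in WT of 6694c2, and was higher in KO in the other lines, with a relative change of 0.00 (SE 0.29, limma adjusted p = 0.87). Ephb3 and Sox9, which is also a ductal marker, had relative changes of -0.15 (SE 0.21) and 0.05 (SE 0.29), with adjusted limma p of 0.628 and 0.918.

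**Figure D4:**
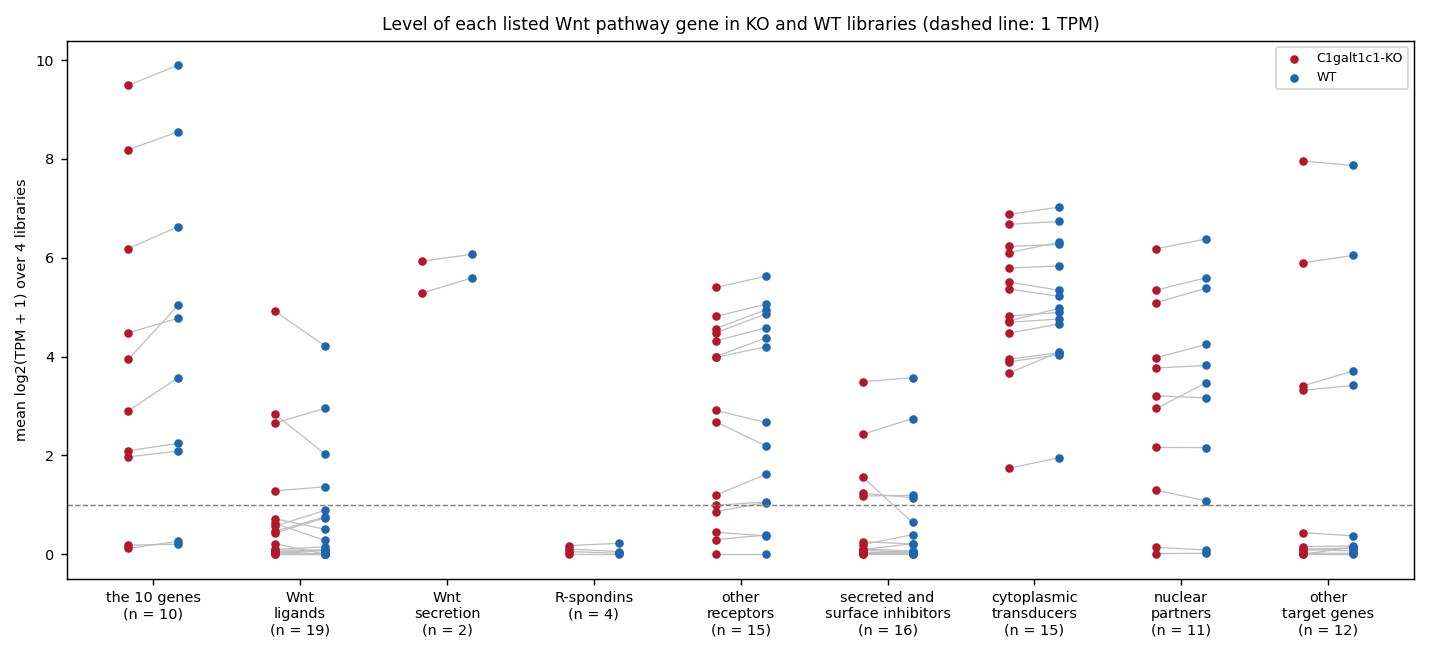
Mean log2(TPM + 1) over 4 libraries (vertical axis) of each listed Wnt pathway gene, in KO (left points) and WT (right points) libraries, by list (horizontal axis). The cytoplasmic transducers all lie above the dashed line at 1 TPM, while the 4 R-spondins, 11 of 19 Wnt ligands, 11 of 16 inhibitors and 7 of 12 other target genes never reached 1 TPM in any library.

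Genes whose levels were most like those of Lgr4 were sought by Pearson's r of log2(TPM + 1) over the 8 libraries. As in the searches below, they were drawn from the 12900 genes tested. Small RNAs, predicted or clone-named genes, identifiers without a name and repeated symbols were left out. The 5 most alike were Fam20b (r = 0.989), a kinase of glycosaminoglycan synthesis, Kctd7 (0.98), Hnrnpr (0.98), Txndc9 (0.979) and Rpgrip1l (0.978). These libraries share lines in pairs, and a search over so many genes with 8 points yields high values, so they are a description. For Axin2 they were Appbp2 (0.978), Sptbn1 (0.954), Glul (0.952), Mfsd6 (0.946) and Pfkfb2 (0.941). Glul, glutamine synthetase and a beta-catenin target in liver, had 316, 292, 373 and 468 TPM in the KO libraries of 6694c2, 2838c3, 6499c4 and 6419c5, against 432, 427, 580 and 1358 TPM in WT. Glul was singled out of the 5 for this role after the search. The likeness is to Axin2 levels of at most 0.43 TPM, and both genes were highest in the WT library of 6419c5. By the Euclidean distance of the 4 KO minus WT differences from those of Lgr4, the nearest genes were Atoh8 (0.188), Ppp2r2b (0.241), Pou2af3 (0.291), Atp1b1 (0.33) and Slc26a2 (0.502). Atoh8, a basic helix-loop-helix factor, had 0.565, 13.0, 5.99 and 41.8 TPM in the KO libraries of 6694c2, 2838c3, 6499c4 and 6419c5, against 2.51, 27.0, 15.0 and 95.9 TPM in WT. Like Lgr4 it was lowest in 6694c2 and highest in 6419c5 in both genotypes.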

How the data were processed

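Polyadenylated RNA of 8 libraries was sequenced as paired ends, per the series' design text. The authors deposited TPM in 1 table, and TPM keep no depth, so no counting intervals are given. The build is mm39, and STAR 2.7.11b, cutadapt 5.1, DESeq2 2.11.40.8 and featureCounts 2.1.1 are named, per the submitters' processing notes. The design text calls the libraries stranded. The gene lengths behind TPM, and whether strand was used in counting, are not given in the sources used here. Genes that overlap one of the 10 reached at most 5.36 TPM.

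Names and positions came from GENCODE vM39 on GRCm39, the assembly of mm39, which named 45505 of 49315 identifiers. Genes with at least 1 TPM in at least 4 libraries (12900) were fitted with limma 3.58.1 in R 4.3.3 on log2(TPM + 1), a scale that understates the change of low genes, with terms for genotype and for line, and with a variance trend. P-values are two-sided and adjusted by Benjamini-Hochberg over all genes tested, with a threshold of 0.05. The line is a block because KO and WT come from the same line, and their deviations from the genotype means correlated at r = 0.66, 0.421, 0.789 and 0.75 in 6694c2, 2838c3, 6499c4 and 6419c5. Relative changes have the median over genes taken off, while p-values have not. Beside the 10 genes, the text names the 2 most abundant of each list, each inhibitor and target past the filter, and the nearest genes in level or difference. The genes and lists were chosen with earlier results of these data known. Python 3.11.15, numpy 2.4.6, pandas 2.3.3 and matplotlib 3.10.9 made tables and figures.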

Additional observations from a re-analysis of the deposited data

Results flagged for a closer look

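Groups of 4 values were the level in KO, the level in WT and the KO minus WT difference of each gene that the naming rule gives and that reached 1 TPM in any library. Of 84 such groups 8 held a value far from the other 3 (by Dixon's ratio at the 95% level), where chance gives about 1 in 20 for independent normal values. TPM were not tested for normality, and the groups of a gene share lines, so no excess is read from this count. Both Ctnnb1 groups were among them, with line 6499c4 at 1944 TPM in KO, against 469 to 593 TPM in the other KO libraries, and at 1905 TPM in WT, against 692 to 878 TPM. Rnf43 had 5.42 TPM in the WT library of 6499c4, against 2.44 to 2.89 TPM in the other WT libraries. Tcf7l2 had 4.59 TPM in the KO library of 6694c2, against 7.06 to 7.53 TPM in the other KO libraries. The KO library of 2838c3 stood apart for Dkk2 at 9.43 TPM, against 0.311 to 1.43 TPM, for Cd44 at 121.3 TPM, against 42.8 to 48.0 TPM, and for Sox9 at 22.02 TPM, against 6.23 to 6.74 TPM. The KO minus WT difference of Cd44 was -1.09 in 6694c2, against 0.28 to 0.41 in the other lines. Differences between lines in the KO effect were not tested, as each line has 1 library per genotype.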

How the results depend on the processing

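The fit was repeated under 14 other settings. No setting called a gene between KO and WT at an adjusted limma p of 0.05, 0 over all genes and 0 of the members, with 111 higher and 1026 lower at an unadjusted limma p under 0.05 in the reported fit. Without the replicate block, that is without pairing by line, the count was also 0, with 34 higher and 176 lower. The relative log2 change of Lgr4 stayed between -1.05 and -0.92. Tcf7l2 stayed between -0.62 and -0.41 and was lower in KO under each setting. Genes that differed between lines numbered 2178, and 745 to 3785 with a line left out; without both 6694c2 and 6419c5 there were 1077. Of the 10 genes 2 differed between lines, Lgr4 and Ctnnb1, and 1 to 3 with a line left out. Median-ratio scaling, quantile normalization and leaving out unnamed identifiers and small RNAs each made it 3 with Lrp5. The median relative change of the wider lists was 0.01, and 0.28 without 6694c2 and 6419c5. Members near 0 turned direction: Rnf43 to -0.077 with a pseudocount of 0.1, -0.069 with no filter and, with a line left out, -0.35 to 0.24, the lowest without 2838c3. Znrf3 turned to 0.025 with quantile normalization and 0.048 without both 6694c2 and 6419c5, and ranged over -0.12 to 0.15 with a line left out, turning without 6499c4 (0.021) and without 6419c5 (0.15). Without both 6694c2 and 6419c5 Lrp5 turned to 0.17 and Lrp6 to 0.10. The causes were not tested. TPM keep no depth, which limits what can be said of Axin2, Lgr5 and the other genes below 1 TPM.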
